A study of Mus musculus with 78 samples.

Results

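Collagens are the rod-shaped proteins, each wound from 3 chains, that give the extracellular matrix its strength, and each chain has a gene of its own. The genes described here are all those whose array symbol reads Col, a type number, the letter a and a chain number, which gave 44 of the 19938 genes with a symbol on the array. Their values come from 46 probe sets, and for Col6a5 and Col6a6, which have 2 each, the probe set with the higher mean over all arrays was used. Of the 44 genes, 36 had a mean above the median of all values on the arrays (5.54 on the log2 scale), as had 57% of all genes, and 33 lay above it in all 18 groups of mice. The 8 genes below it were Col4a3, Col4a6, Col8a1, Col9a1, Col10a1, Col12a1, Col19a1 and Col28a1, and 5 of these lay below it in every group. The genes nearest to the line were Col11a1, just above it with a mean of 5.56, and Col4a3, just below it with 5.53.

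The livers came from 78 female mice, 1 array per mouse. The age series held Npc1-/- mice and their Npc1+/+ littermates from crosses of heterozygotes in the line BALB/cNctr-Npc1m1N/J (strain BALB/c). At each of 6 ages, spaced by 2 weeks from week 1 to week 11, there were 4 mice per genotype. The labels call the mutants pre-symptomatic at 1 and 3 weeks and post-symptomatic later, and pups were weaned at 3 weeks. The second set held Npc1+/+ BALB/cJ mice at 12 weeks of age, 5 per group: untreated, fasted overnight, or injected over the 4 weeks from week 8 with a control antisense oligonucleotide (oligo) or one against Npc1. Each oligo was given without and with N-acetyl-cysteine (NAC), an antioxidant. Npc1 encodes the lysosomal protein that exports cholesterol, and its loss causes Niemann-Pick disease type C, in which the liver fills with lipid-laden macrophages. The mutation acts in all cells from conception, whereas an injected oligo acts only in adult life and only in the cells that take it up.

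In the liver most fibrillar collagen is made by stellate cells and portal fibroblasts. Collagens I, III and V assemble into the fibrils that accumulate in scar, collagen VI forms beaded filaments around them, and fibril-associated collagens such as type XIV decorate their surface. Collagen IV builds the sheet of basement membranes under endothelium and epithelium, and collagens XV and XVIII are found in or next to such sheets. Signals through TGF-beta and PDGF receptors are the best known inducers of collagen genes in these cells. In whole liver, fewer cells of a type and less RNA per cell cannot be told apart.

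Promoters are shown for 4 collagen genes that the results turn on. The windows are RefSeq sequence of build GRCm38.p6, from 250 bases before to 50 bases after the start of the gene, 5′ to 3′ on the strand of the gene. Such a window was at hand for 35 of the 44 genes. Between the starts of Col4a1 and Col4a2, on opposite strands of chromosome 8, lie 20 bases. The start of Col4a1, on the minus strand, has the higher coordinate, so the genes overlap there. Their windows are chr8:11312777-11313076 (minus strand) and chr8:11312555-11312854 (plus strand), and capitals mark the 78 bases that both windows share. In the Col1a2 window, chr6:4505368-4505667 (plus strand), capitals mark the 2 matches to CCAAT on either strand, at window positions 142 and 251. The match at 251 begins at the start of the gene. CCAAT also has 1 match each in the windows of Col4a1 (position 106) and Col4a2 (position 219), not marked there. GGGCGG, marked in no window, has matches in those of Col4a1, Col4a2 and Col1a2 and none in that of Col3a1. In the Col3a1 window, chr1:45311288-45311587 (plus strand), capitals mark the single match to TATAAA, at position 134.
Col4a1: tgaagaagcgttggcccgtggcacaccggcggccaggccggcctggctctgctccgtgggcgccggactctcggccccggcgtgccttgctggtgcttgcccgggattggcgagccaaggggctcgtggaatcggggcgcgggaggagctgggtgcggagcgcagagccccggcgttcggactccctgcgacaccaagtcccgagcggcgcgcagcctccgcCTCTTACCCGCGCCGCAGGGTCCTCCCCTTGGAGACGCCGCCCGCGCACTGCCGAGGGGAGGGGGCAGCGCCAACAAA
Col4a2: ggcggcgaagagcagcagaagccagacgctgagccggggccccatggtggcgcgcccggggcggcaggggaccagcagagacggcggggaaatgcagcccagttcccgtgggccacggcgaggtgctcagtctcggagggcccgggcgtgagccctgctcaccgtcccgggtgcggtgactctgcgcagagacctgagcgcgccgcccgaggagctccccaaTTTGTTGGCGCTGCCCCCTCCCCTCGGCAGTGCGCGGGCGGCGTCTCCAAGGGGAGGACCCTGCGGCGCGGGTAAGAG
Col1a2: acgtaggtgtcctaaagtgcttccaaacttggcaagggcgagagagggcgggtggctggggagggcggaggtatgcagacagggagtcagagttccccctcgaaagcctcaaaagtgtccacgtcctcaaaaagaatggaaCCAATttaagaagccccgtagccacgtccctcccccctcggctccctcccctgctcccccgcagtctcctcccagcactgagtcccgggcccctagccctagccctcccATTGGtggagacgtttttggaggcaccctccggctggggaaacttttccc
Col3a1: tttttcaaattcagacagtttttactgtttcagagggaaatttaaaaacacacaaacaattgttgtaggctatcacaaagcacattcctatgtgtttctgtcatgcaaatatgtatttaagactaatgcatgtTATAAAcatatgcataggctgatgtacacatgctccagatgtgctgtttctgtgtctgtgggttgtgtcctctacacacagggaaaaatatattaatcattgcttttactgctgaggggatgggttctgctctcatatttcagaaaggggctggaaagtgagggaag
On both strands CCAAT was found in 37.4% of all 32851 windows of this length and in 13 of the 38 windows of collagen genes, some of which have more than 1 start. TATAAA was found in 13.6% of all windows and in 5 of those of collagen genes, and GGGCGG in 35.7% and in 23. A match of letters is a description of the window and no evidence of binding.

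Npc1 itself followed the labels. Its mean log2 value was 8.10 to 8.78 in the Npc1-/- groups and 9.26 to 10.27 in the Npc1+/+ groups, and at each age every mutant lay below every control. Among 12-week mice without NAC the control oligo group stood at 10.22 ± 0.14 (SD, n = 5) and the Npc1 oligo group at 7.25 ± 0.22. Among those given NAC the same groups stood at 9.19 ± 0.46 and 7.11 ± 0.31. Which part of the Npc1 transcript the probes read is not given. A few arrays stood apart. At 1 week, Npc1-/- mouse 3 had a mean over skeletal muscle markers of 9.10, where the other mutants of that age had 5.39 to 5.55. At 3 weeks, Npc1+/+ mice 1 and 2 had means over exocrine pancreas markers of 8.37 and 8.36, where the other 2 controls had 4.98 and 4.93. Smaller signals of muscle were seen in Npc1+/+ mouse 3 of 7 weeks (6.56) and mouse 4 of 3 weeks (6.01). Smaller signals of pancreas were seen in 1-week Npc1-/- mouse 2 (6.40), 5-week Npc1-/- mouse 4 (5.95), 5-week Npc1+/+ mouse 1 (6.15), Npc1+/+ mouse 4 of 9 and of 11 weeks (6.03 each) and 1 fasted mouse (6.20). Leaving out any one of these arrays with smaller signals kept the count of collagen genes called within 1.5 times in each comparison that uses its group. The labels number Npc1+/+ mice 3 and 4 of 1 week apart from the other pups. Results that rest on these arrays are given with and without them.

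Differences are given on the log2 scale with their standard error from limma, a linear model fitted to all 12638 genes of the age series or 11900 of the 12-week set that passed a filter on low values. A gene counts as changed where its Benjamini-Hochberg adjusted p over all genes tested is under 0.05. The filter let 40 of the 44 collagen genes into the tests of the age series and 39 into those of the 12-week set. Col4a6, Col10a1, Col12a1 and Col19a1 were tested in neither set, and Col8a1 was not tested at 12 weeks. The p-values set each difference against the spread between mice within groups, pooled over all groups of the fit.

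The most widely moving collagen genes of the Npc1-/- liver were those of the interstitial fibrils and their surroundings: Col1a1 and Col1a2 (the chains of collagen I), Col6a1 and Col6a3 (chains of collagen VI) and Col14a1 were each higher than in Npc1+/+ littermates at 4 or more of the 6 ages. Col1a2 and Col6a3 were higher at all 5 ages from 3 weeks on. How many of all genes were higher at 4 or more ages was not counted. Over all ages, 15 collagen genes rose at 1 or more ages, 3 fell at 1 or more (Col18a1 is among both), and 23 of the 40 tested changed at none. Of all 12638 genes tested, 29.6% rose at 1 or more ages, 29.8% fell at 1 or more and 42.3% changed at none. No collagen gene passed the threshold at 1 week.

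At 1 week, limma with Benjamini-Hochberg adjustment called 0 of the 40 tested collagen genes, while 2.91% of all genes tested were higher in the mutants and 2.78% were lower. A single collagen gene had an unadjusted p under 0.05. This was Col14a1, whose values were 10.41, 10.38, 10.20 and 10.28 in the 4 mutants and 10.43, 10.69, 10.45 and 10.54 in the controls. All mutants lay below all controls, with a change of -0.21 ± 0.08 (adjusted p 0.138). The changes of the 40 genes ran from -0.21 to 0.24, and 15 of them were above 0. Leaving out the mutant with muscle signal, or the 2 controls numbered apart, left the count at 0.

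At 3 weeks, 4 collagen genes were higher in the mutants and 0 lower, beside 8.9% and 6.84% of all genes, so that collagen genes were called higher about as often as other genes. The values of Col1a1 were 9.15, 9.40, 9.64 and 9.57 in the mutants and 8.59, 8.52, 8.81 and 9.20 in the controls, a change of 0.66 ± 0.14 (adjusted p 4.74e-04). Mutant 1 lay below control 4, so the groups overlapped. Col1a2 rose by 0.52 ± 0.10 (adjusted p 1.68e-04), from 8.76 ± 0.13 (mean ± SD, n = 4) in controls to 9.28 ± 0.16 in mutants, with all mutants above all controls. Col6a3 and Col6a1 rose by 0.52 ± 0.12 and 0.35 ± 0.10. Controls 1 and 2, the mice with pancreas signal, were lower than the other 2 controls in Col1a1, and in the pair's absence Col1a2 alone passed the threshold (0.45, adjusted p 0.0141). Without the pair the change of Col1a1 was 0.44 (adjusted p 0.0852), that of Col6a3 0.37 (0.0964) and that of Col6a1 0.32 (0.0989).

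**Figure D1:**
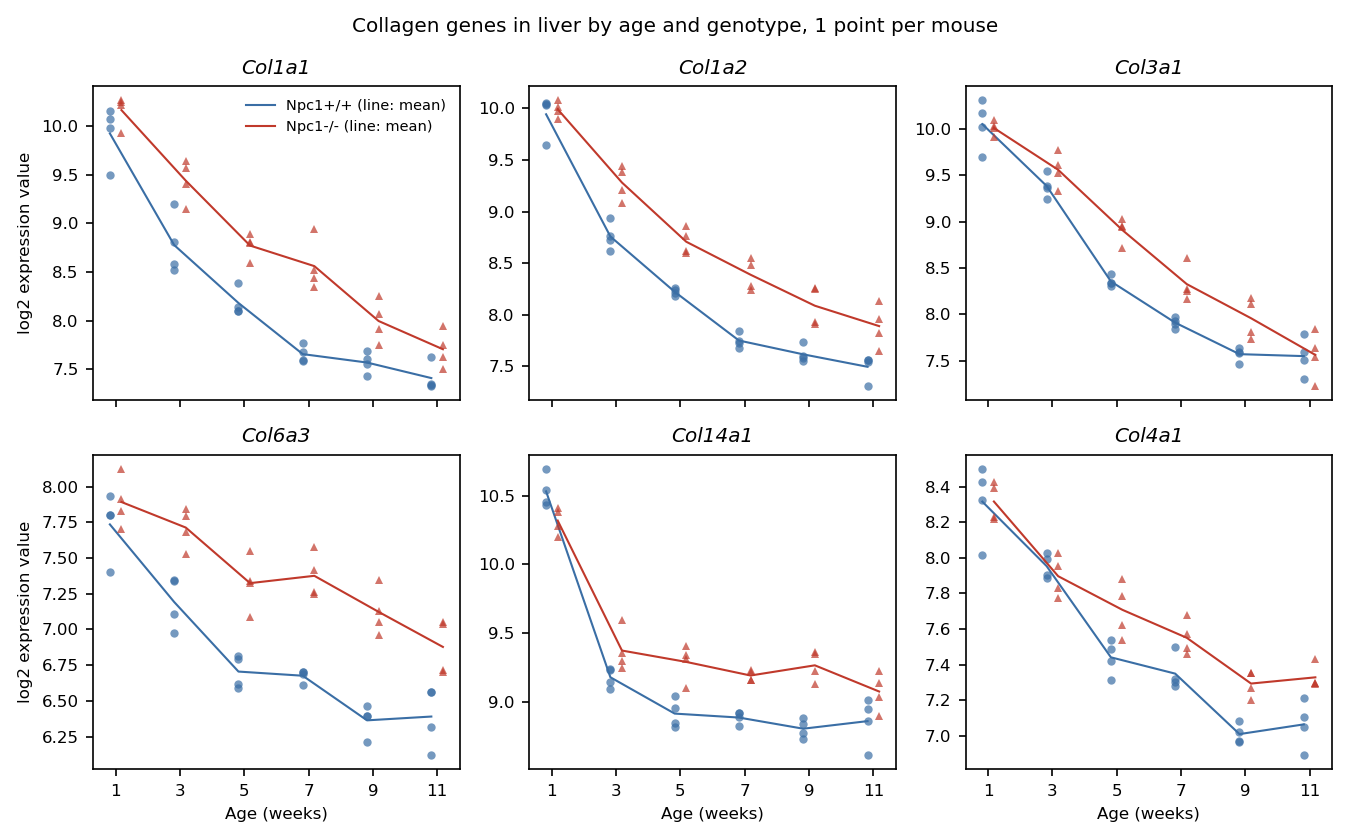
Log2 expression (vertical axes, which differ between panels) of Col1a1, Col1a2, Col3a1, Col6a3, Col14a1 and Col4a1 against age in weeks (horizontal axes). Each point is 1 mouse and the lines join the group means, with Npc1+/+ as blue circles and Npc1-/- as red triangles; the means are lower at 11 weeks than at 3 weeks in both genotypes, and at 7 weeks the 4 mutants lie above the 4 controls in Col1a1, Col1a2, Col3a1, Col6a3 and Col14a1.

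At 5 weeks, 7 collagen genes were higher in the mutants and 0 lower, beside 9.69% and 2.88% of all genes. Quantile normalization gave 6 higher and 2 lower and moved the higher genes' share of all calls from 77.1% to 68.4%. Col3a1, the chain of collagen III, stood at 9.03, 8.94, 8.95 and 8.72 in the mutants and at 8.44, 8.34, 8.34 and 8.31 in the controls. All mutants lay above all controls, with a change of 0.55 ± 0.12 (adjusted p 6.86e-04). Col6a3 rose by 0.62 ± 0.12, Col1a1 by 0.59 ± 0.14, Col1a2 by 0.48 ± 0.10 and Col14a1 by 0.38 ± 0.08. Those 5 calls held under every alternative tried and with any 1 array left out. Col18a1 (0.32 ± 0.11, adjusted p 0.0347) and Col4a1 (0.27 ± 0.09, adjusted p 0.0298) did not hold so well: their adjusted p reached 0.155 and 0.16 among the alternatives and left-out arrays. Of the 40 genes 15 had a change above 0, and their median was -0.02 beside 0.01 for all genes.

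At 7 weeks, 8 collagen genes were higher and 0 lower, beside 14.3% and 11% of all genes. With each array centred on its median, the higher genes' share of all calls at this age moved from 56.5% to 43.2%, and the collagen genes went to 6 higher and 0 lower. Col1a1 had its widest genotype difference here. Its values were 8.52, 8.34, 8.94 and 8.44 in the mutants and 7.68, 7.77, 7.59 and 7.58 in the controls, so that the lowest mutant stood well above the highest control. The change was 0.90 ± 0.14 (adjusted p 1.07e-06), a level 1.87 times that of the controls. Col6a3 rose by 0.70 ± 0.12, from 6.70, 6.68, 6.61 and 6.70 in the controls to 7.42, 7.26, 7.58 and 7.25 in the mutants. Col1a2 rose by 0.64 ± 0.10 and Col3a1 by 0.42 ± 0.12. The call of Col3a1 was lost without mutant 3, the mouse with the highest value (adjusted p 0.0538). Col6a1, Col14a1, Col4a2 and Col6a2 rose by 0.32, 0.31, 0.28 and 0.24. Leaving out mutant 3 brought the count from 8 to 5.

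**Figure D2:**
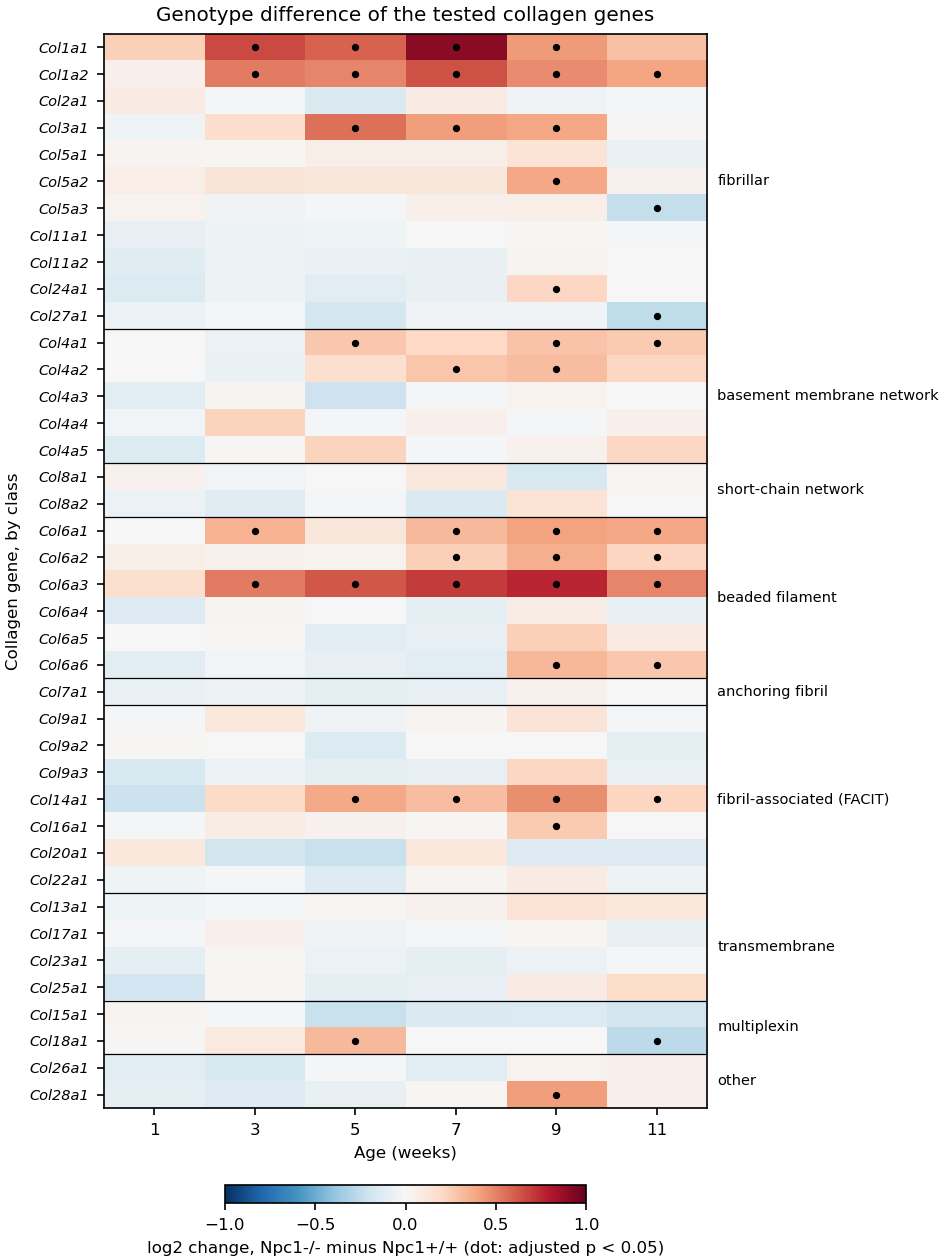
Genotype difference of the 40 tested collagen genes (rows, grouped by class) at the 6 ages (columns), as log2 change of Npc1-/- minus Npc1+/+ from limma. Red is higher and blue lower in the mutants, the colour scale ends at 1 and -1, and a dot marks an adjusted p under 0.05; the column of 1 week holds no dot and that of 9 weeks holds 14.

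At 9 weeks the change was broadest: 14 collagen genes were higher and 0 lower, beside 17.6% and 15.5% of all genes. Centring each array moved the higher genes' share of all calls from 53.1% to 38.4%, and the collagen genes to 12 higher and 0 lower. The median change of the 40 tested collagen genes was 0.10 and that of all genes -0.01, and 33 of the 40 changes were above 0. By class, 5 of 11 tested fibrillar genes rose, 4 of 6 of the beaded filament, 2 of 5 of the basement membrane network and 2 of 7 fibril-associated genes. Of the 14 calls, 7 held under every alternative and left-out array: those of Col1a2, Col4a1, Col5a2, Col6a1, Col6a2, Col6a3 and Col14a1. Control 3 of this age was the lowest control in Col5a2, Col6a1, Col6a3 and Col28a1, among others, and without it 9 collagen genes were called.

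The largest change at 9 weeks was that of Col6a3. Its values were 7.35, 6.96, 7.05 and 7.13 in the mutants and 6.46, 6.39, 6.21 and 6.39 in the controls, all mutants above all controls, a change of 0.76 ± 0.12 (adjusted p 1.08e-06, 1.69 times the control level). Of its partner chains, Col6a1 rose by 0.40 ± 0.10 and Col6a2 by 0.37 ± 0.08. Col14a1, the chain of the fibril-associated collagen XIV, stood at 9.36, 9.13, 9.22 and 9.35 in the mutants and 8.77, 8.88, 8.84 and 8.73 in the controls. The groups lay apart by more than their own spread, with a change of 0.46 ± 0.08 (adjusted p 2.45e-05).

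Among fibrillar genes at 9 weeks, Col1a2 rose by 0.47 ± 0.10 and Col1a1 by 0.43 ± 0.14. Col1a1 was called with an adjusted p of 0.0131, which became 0.0732 without mutant 1. Col3a1 rose by 0.39 ± 0.12, and its adjusted p of 0.00909 became 0.0545 without the same mouse. Col5a2, a chain of collagen V, which is built into collagen I fibrils, had values of 5.67, 5.58, 5.73 and 5.73 in the mutants and 5.44, 5.33, 4.90 and 5.50 in the controls. It rose by 0.39 ± 0.10 (adjusted p 0.00257), and all controls lay below the median of all array values. Col24a1, a minor fibrillar chain, rose by 0.21 ± 0.08, a call that 7 alternatives removed. Its adjusted p went up to 0.213 over the alternatives and left-out arrays.

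The paired basement membrane chains both rose at 9 weeks. Col4a1 stood at 7.35, 7.20, 7.27 and 7.35 in the mutants and 6.97, 6.96, 7.02 and 7.08 in the controls, with no overlap and a change of 0.28 ± 0.09 (adjusted p 0.00817). Col4a2, whose promoter window overlaps that of Col4a1, stood at 6.75, 6.77, 6.83 and 6.92 against 6.77, 6.45, 6.35 and 6.45. Control 1 lay among the mutants, and the change was 0.31 ± 0.09 (adjusted p 0.00939, or 0.0505 without control 3). The 3 other tested chains of collagen IV, Col4a3, Col4a4 and Col4a5, changed at no age.

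At 9 weeks 3 further genes passed the threshold. Col28a1, which encodes a collagen with von Willebrand factor domains, had values of 5.42, 5.86, 5.74 and 5.34 against 5.38, 5.12, 4.86 and 5.33, overlapping groups that differed by 0.42 ± 0.13. Its mean over all arrays lies below the median of all values. Col16a1, another fibril-associated chain, rose by 0.26 ± 0.09, a call lost under quantile normalization (adjusted p up to 0.223 over all alternatives and left-out arrays). Col6a6 rose by 0.33 ± 0.10 on the probe set used. On its second probe set the change had the same sign, at 0.12 ± 0.11 (limma, unadjusted p 0.302). That second probe set had a mean of 5.43 over all arrays, below the median of all values, so it may lie at background. Its values correlated with those of the probe set used at r 0.375.

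At 11 weeks, 7 collagen genes were higher and 3 lower, beside 18.8% and 20.5% of all genes. The share of collagen genes called was thus no larger than that of all genes, and Col1a1 and Col3a1 did not pass the threshold. With each array centred on its median the collagen genes went to 3 higher and 4 lower, and the higher genes' share of all calls from 47.8% to 38.3%. Col1a1 stood at 7.95, 7.75, 7.51 and 7.62 in the mutants and 7.63, 7.34, 7.33 and 7.35 in the controls. The groups overlapped, and its change of 0.30 ± 0.14 had an adjusted p of 0.081. Col3a1 stood at 7.56 ± 0.26 in mutants and 7.55 ± 0.20 in controls, a difference of 0.01 ± 0.12. Col1a2, at 7.89 ± 0.20 against 7.50 ± 0.12, was still higher by 0.39 ± 0.10 (adjusted p 0.00125), with every mutant above every control. Col6a3 rose by 0.49 ± 0.12 and Col6a1 by 0.39 ± 0.10, and these and Col1a2 were the 3 calls of this age that held under all alternatives and left-out arrays. Col4a1, Col6a6, Col14a1 and Col6a2 rose by 0.26, 0.27, 0.22 and 0.21. On its second probe set Col6a6 changed by -0.02 (limma, unadjusted p 0.868).

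The 3 genes lower in mutants at 11 weeks were Col18a1, Col27a1 and Col5a3. Col18a1 encodes the multiplexin that carries endostatin at its end, and hepatocytes are a known source of it. Its values were 9.72, 9.60, 9.50 and 9.62 in the mutants and 9.75, 10.05, 9.73 and 9.95 in the controls, a change of -0.26 ± 0.11 (adjusted p 0.0439). All mutants lay below all controls, mutant 1 only just. At 5 weeks the same gene stood at 10.03, 10.23, 10.19 and 10.10 in the mutants and 9.75, 9.61, 10.05 and 9.84 in the controls, the reverse order. Col27a1, a fibrillar chain of cartilage, changed by -0.25 ± 0.10 and Col5a3 by -0.24 ± 0.09. None of these 3 calls held with every single array left out. Over the alternatives and left-out arrays the adjusted p reached 0.292 for Col18a1, 0.172 for Col27a1 and 0.0881 for Col5a3. The count of 10 became 5 without mutant 4 or without control 3, and 6 without control 2.

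Averaged over the 6 ages, 10 collagen genes were higher in Npc1-/- mice and 2 lower, beside 26% and 26.6% of all genes, so that collagen genes were called higher about as often as other genes and the changes below are those of single genes. The higher ones were Col6a3 (0.54 ± 0.05), Col1a1 (0.52 ± 0.06), Col1a2 (0.43 ± 0.04), Col6a1 (0.26 ± 0.04), Col3a1 (0.25 ± 0.05), Col14a1 (0.22 ± 0.03), Col4a1 (0.16 ± 0.03), Col6a2 (0.16 ± 0.03), Col4a2 (0.15 ± 0.04) and Col5a2 (0.14 ± 0.04). All 10 calls held under each alternative and left-out array. Col15a1 (-0.11 ± 0.04) and Col27a1 (-0.10 ± 0.04) were lower, calls that were both lost without the 2 controls of 3 weeks that had pancreas signal. Centring the arrays gave 10 higher and 8 lower collagen genes and moved the higher genes' share of all calls from 49.4% to 37.6%, and quantile normalization gave 10 and 9 with a share of 42.5%.

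The genotype difference of 6 collagen genes rose with age in a linear fit, and that of 0 fell, beside 14.9% and 14% of all genes, again a share of collagen genes near that of all genes. The slope was 0.04 ± 0.01 per week for Col14a1 (adjusted p 0.00135) and Col6a6 (0.00626), and 0.03 ± 0.01 for Col4a1, Col4a2, Col6a1 and Col6a2. Only the slope of Col14a1 held under all alternatives and left-out arrays; that of Col6a6 was lost on the mean of its 2 probe sets (adjusted p 0.192). With centred arrays the collagen genes were 3 with a rising and 1 with a falling difference, and the rising share of all calls went from 51.5% to 40.2%. Without the 1-week controls numbered apart there were 9 and 1.

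A test of any variation of the genotype difference between ages (moderated F test) called 6 collagen genes and 27.7% of all genes. They were Col14a1 (adjusted p 0.000304), Col3a1 (0.019), Col1a2 (0.0194), Col6a6 (0.0208), Col6a3 (0.0413) and Col1a1 (0.0461). On the second probe set of Col6a6 the same F test gave an unadjusted p of 0.956. For Col1a1 the changes at the 6 ages in order were 0.24, 0.66, 0.59, 0.90, 0.43 and 0.30, highest at 7 weeks. For Col3a1 they were -0.04, 0.17, 0.55, 0.42, 0.39 and 0.01. For Col14a1 they ran from -0.21 at 1 week to 0.46 at 9 weeks and 0.22 at 11 weeks.

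Collagen genes also fell with age. In Npc1+/+ mice, 13 collagen genes were lower at 3 weeks than at 1 week and 1 was higher, beside 21.5% and 15.4% of all genes. Col14a1 fell most, from 10.43, 10.69, 10.45 and 10.54 to 9.23, 9.09, 9.24 and 9.15. The 2 ages lay far apart, a change of -1.35 ± 0.08 (adjusted p 2.52e-17). Col1a2 changed by -1.18 ± 0.10, Col1a1 by -1.15 ± 0.14, Col3a1 by -0.67 ± 0.12, Col5a2 by -0.66 ± 0.10 and Col6a3 by -0.54 ± 0.12. Smaller decreases were those of Col4a1 (-0.36), Col6a1 (-0.34), Col4a2 (-0.28), Col27a1 (-0.27), Col4a5 (-0.26), Col5a1 (-0.22) and Col6a2 (-0.21). Col20a1, a fibril-associated chain, was the gene that rose (0.26 ± 0.09). Without the 3-week controls with pancreas signal there were 9 lower and 1 higher, and 11 and 1 without the 1-week controls numbered apart.

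From 3 to 11 weeks in Npc1+/+ mice, 13 collagen genes fell and 0 rose, beside 3.74% and 6.44% of all genes. The 3-week mice are the same in this and the previous comparison. Col3a1 went from 9.36, 9.25, 9.39 and 9.54 at 3 weeks to 7.79, 7.50, 7.30 and 7.60 at 11 weeks. It changed by -1.84 ± 0.12 (adjusted p 4.44e-16), to 0.28 times its earlier level. Col1a1 went from 8.78 ± 0.31 to 7.41 ± 0.14, a change of -1.37 ± 0.14, and Col1a2 from 8.76 ± 0.13 to 7.50 ± 0.12, a change of -1.26 ± 0.10. Col4a1 stood at 7.90, 7.89, 8.03 and 7.99 and then at 7.10, 7.05, 6.89 and 7.21, a change of -0.89 ± 0.09, and Col4a2 changed by -0.89 ± 0.09. The other genes that fell were Col6a3 (-0.80), Col5a2 (-0.53), Col6a1 (-0.51), Col5a1 (-0.47), Col6a2 (-0.43), Col4a5 (-0.37), Col6a6 (-0.34) and Col14a1 (-0.32). Of the 13 calls 11 held under all alternatives and left-out arrays, all but those of Col6a6 and Col14a1. On its second probe set Col6a6 changed by 0.03 (limma, unadjusted p 0.817). The median change of the 40 tested collagen genes was -0.12 beside 0.02 for all genes.

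In Npc1-/- mice, 14 collagen genes fell from 3 to 11 weeks and 0 rose, beside 12.2% and 16.4% of all genes. Col3a1 went from 9.33, 9.52, 9.61 and 9.77 to 7.85, 7.64, 7.54 and 7.23, a change of -2.00 ± 0.12 (adjusted p 8.09e-18). Col1a1 went from 9.15, 9.40, 9.64 and 9.57 to 7.95, 7.75, 7.51 and 7.62, a change of -1.73 ± 0.14. Col1a2 and Col6a3 changed by -1.39 ± 0.10 and -0.84 ± 0.12. Among the genes that fell, Col18a1 (-0.51 ± 0.11), Col4a4 (-0.26 ± 0.09) and Col5a3 (-0.23 ± 0.09) passed the threshold in the mutants and not in the controls. The others fell in both genotypes, and the share of all genes that did so was not counted. For Col4a1 the change was -0.57 ± 0.09 in mutants and -0.89 ± 0.09 in controls, and for Col4a2 -0.62 ± 0.09 and -0.89 ± 0.09. The difference between the genotypes' changes from 3 to 11 weeks was not tested in itself; the slope over all ages, given above, was. The median change of the tested collagen genes was -0.08 beside 0.02 for all genes.

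**Figure D3:**
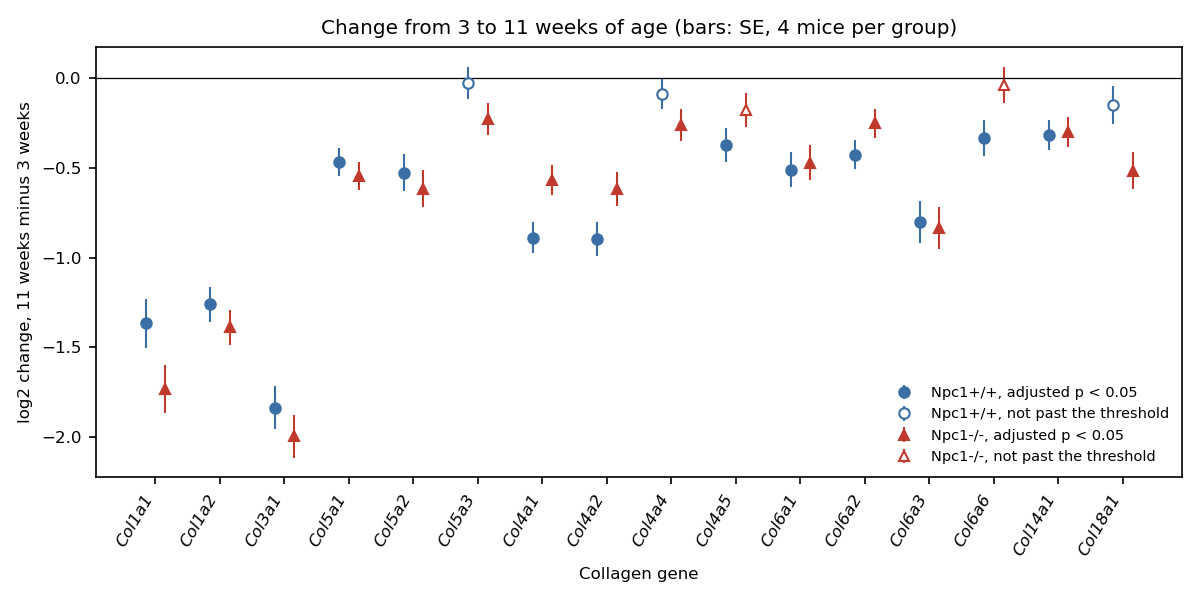
Log2 change from 3 to 11 weeks of age (vertical axis) of the 16 collagen genes past the threshold in either genotype (horizontal axis), with Npc1+/+ as blue circles and Npc1-/- as red triangles. Points are limma estimates, bars are standard errors and filled points have an adjusted p under 0.05; Col3a1 lies lowest in both genotypes, at -1.84 in Npc1+/+ and -2.00 in Npc1-/- mice.

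The 10 genes that were higher on average over the ages had the widest ranges among the 78 arrays, which include the differences by genotype and age given above. From the lowest to the highest array they ranged over 1.22 to 3.50 (median 2.15). The other 26 collagen genes above the median of all values ranged over 0.56 to 1.15 (median 0.81), and the 8 below it over 0.60 to 1.10 (median 0.84). Col2a1, Col11a1 and Col11a2, fibrillar chains known from cartilage, had group means of 6.41 to 6.76, 5.44 to 5.71 and 6.34 to 6.59 and changed in no comparison. The same held for Col6a4 (5.44 to 5.74), Col6a5 (5.95 to 6.34), Col7a1 of the anchoring fibril (6.46 to 6.72), the fibril-associated Col9a3 (7.22 to 7.53) and Col22a1 (5.87 to 6.13), the transmembrane chains Col17a1 (5.56 to 5.76), Col23a1 (6.15 to 6.47) and Col25a1 (5.76 to 6.07), and Col26a1 (6.75 to 7.11). Of the tested genes below the median, Col4a3, Col8a1 and Col9a1 changed in no comparison either. For Col6a5 this holds for the probe set used. Its second probe set had a mean of 5.04, below the median of all values, and r 0.0373 with the first. There limma gave 0.29 ± 0.12 for the genotype difference at 3 weeks (unadjusted p 0.0178). From 3 to 11 weeks in Npc1-/- mice it gave -0.39 ± 0.12 (0.00231), and for the slope -0.03 ± 0.01 per week (0.0436).

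At 12 weeks of age, knockdown of Npc1 in the adult moved few collagen genes. Without NAC, the Npc1 oligo against the control oligo gave 0 higher and 1 lower collagen gene of 39 tested, beside 14.7% and 7.88% of all genes. The lower gene was Col4a4, a chain of collagen IV best known from kidney. Its values were 5.79, 5.97, 5.80, 5.73 and 5.68 in control oligo mice and 5.65, 5.54, 5.32, 5.75 and 5.68 in Npc1 oligo mice. The groups overlapped, the change was -0.21 ± 0.07 (adjusted p 0.0422), and 6 of the alternatives ended the call. Its adjusted p went up to 0.171 over the alternatives and left-out arrays. Col1a1 stood at 7.41, 7.16, 7.12, 6.99 and 6.96 in control oligo mice and at 7.29, 7.27, 7.43, 7.31 and 7.33 in Npc1 oligo mice, and the difference of 0.20 ± 0.09 did not pass the threshold (adjusted p 0.0982). Over the 39 tested collagen genes the median change was -0.11, beside 0.02 for all genes, and 9 changes were above 0. By limma, 6 of the 39 had an unadjusted p under 0.05, a cut at which the share of all genes was not counted. Of all calls of this comparison 65.1% were higher, and 75.7% after centring (1 collagen gene higher, 0 lower) or 55.5% after quantile normalization (0 and 2).

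With NAC, the Npc1 oligo gave 2 higher and 1 lower collagen gene, beside 11% and 14.7% of all genes. Col1a2 stood at 7.04, 7.46, 7.43, 7.32 and 7.08 with the control oligo and NAC and at 7.85, 7.73, 7.54, 7.78 and 7.73 with the Npc1 oligo and NAC. All 5 knockdown mice lay above all 5 controls, with a change of 0.46 ± 0.09 (adjusted p 2.97e-04), which held under all alternatives and left-out arrays. Col1a1 stood at 6.77, 7.10, 7.06, 7.26 and 6.98 and 7.41, 7.36, 7.13, 7.28 and 7.44, overlapping groups that differed by 0.29 ± 0.09 (adjusted p 0.0117, or 0.058 without mouse 1 of the control oligo with NAC, its lowest value). Col20a1 fell by 0.27, from 5.94, 6.16, 6.37, 6.20 and 6.18 to 6.04, 5.91, 5.84, 5.74 and 5.97 (adjusted p 0.0155). The comparison stands beside an Npc1 level that was itself lower in the control oligo mice given NAC than in those without.

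NAC alone changed few collagen genes. In control oligo mice limma called 0 of them, beside 6.09% of all genes higher and 2.41% lower. At an unadjusted p under 0.05 limma gave 12, and all 12 of those changes were below 0. The share of all genes at that unadjusted cut was not counted. The median change of the 39 tested collagen genes was -0.14, beside 0.03 for all genes. Quantile normalization called 2 of them lower and moved the higher genes' share of all calls from 71.6% to 51.8% (83% after centring, with 0 collagen calls). In Npc1 oligo mice NAC lowered 1 collagen gene and raised 0, beside 4.27% and 2.88% of all genes. This was Col24a1, at 6.01, 5.97, 6.04, 6.09 and 5.99 without and 5.90, 5.78, 5.66, 5.73 and 5.93 with NAC, a change of -0.22 ± 0.06 (adjusted p 0.0326, up to 0.125 over the alternatives and left-out arrays).

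The interaction of NAC and the Npc1 oligo called 0 collagen genes by limma, beside 1.15% of all genes higher and 3.68% lower. At an unadjusted limma p under 0.05 there were 2, and the share of all genes at that cut was not counted. For Col1a2 the oligo's effect was 0.16 without and 0.46 with NAC. The difference between them was 0.31 ± 0.13, with a 95% interval of 0.04 to 0.57 and an adjusted p of 0.167. The higher share of all calls was 23.8%, or 47% after quantile normalization (0 collagen genes in either direction). Fasting overnight called 0 collagen genes, beside 0.21% of all genes higher and 0.319% lower. Here too 2 had an unadjusted limma p under 0.05, without a count of all genes at that cut. Col1a1 stood at 7.79, 7.53, 7.34, 7.51 and 7.56 in untreated and 7.22, 7.37, 7.36, 7.21 and 7.27 in fasted mice, a difference of -0.26 ± 0.09 (adjusted p 0.233).

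Collagen genes also differed between control oligo and untreated mice: 7 were higher with the oligo and 4 lower, beside 5.05% and 21.3% of all genes. The control oligo mice are shared with the comparisons above. The labels say that 12-week livers were either frozen or kept in RNAlater and not which mouse had which, so its part in differences between these groups was not tested. The lower genes were the fibril genes Col1a1, Col3a1 and Col14a1 and the multiplexin Col18a1. Col1a1 stood at 7.79, 7.53, 7.34, 7.51 and 7.56 in untreated and 7.41, 7.16, 7.12, 6.99 and 6.96 in control oligo mice. One treated mouse lay among the untreated, with a change of -0.42 ± 0.09 (adjusted p 6.50e-04). Col3a1 went from 7.85, 7.62, 7.40, 7.61 and 7.68 to 7.63, 7.15, 7.31, 7.02 and 7.12 (-0.39 ± 0.12, adjusted p 0.0129, or 0.0543 after quantile normalization).

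Col14a1 went from 9.39, 9.08, 9.18, 9.29 and 9.24 in untreated mice to 9.19, 8.68, 8.94, 8.90 and 8.65 with the control oligo (-0.37 ± 0.11, adjusted p 0.0108). Col18a1 went from 10.16, 9.93, 9.81, 10.02 and 9.97 to 9.82, 9.65, 9.54, 9.70 and 9.75. Only the highest treated mouse lay above the lowest untreated one, with a change of -0.28 ± 0.06 (adjusted p 0.00139). Col6a6 went up on the probe set used, from 6.85, 6.78, 6.50, 6.55 and 6.88 to 7.17, 7.10, 7.06, 7.12 and 6.94, by 0.37 ± 0.09. On its second probe set the change was 0.01 (unadjusted p 0.899), and on the mean of both the call was lost (adjusted p 0.0834). The other genes that rose were Col8a2, known from Descemet's membrane of the cornea (0.34 ± 0.10), Col9a2, of cartilage fibrils (0.33 ± 0.10), Col28a1 (0.30 ± 0.11), the transmembrane Col13a1 (0.28 ± 0.08), Col24a1 (0.23 ± 0.06) and Col4a4 (0.23 ± 0.07). Over the 39 tested the median change was 0.14, beside -0.07 for all genes. Quantile normalization gave 14 higher and 3 lower collagen genes and moved the higher genes' share of all calls from 19.2% to 42.5%. Of the 11 calls, those of Col1a1, Col8a2, Col14a1, Col18a1 and Col24a1 held under all alternatives and left-out arrays.

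**Figure D4:**
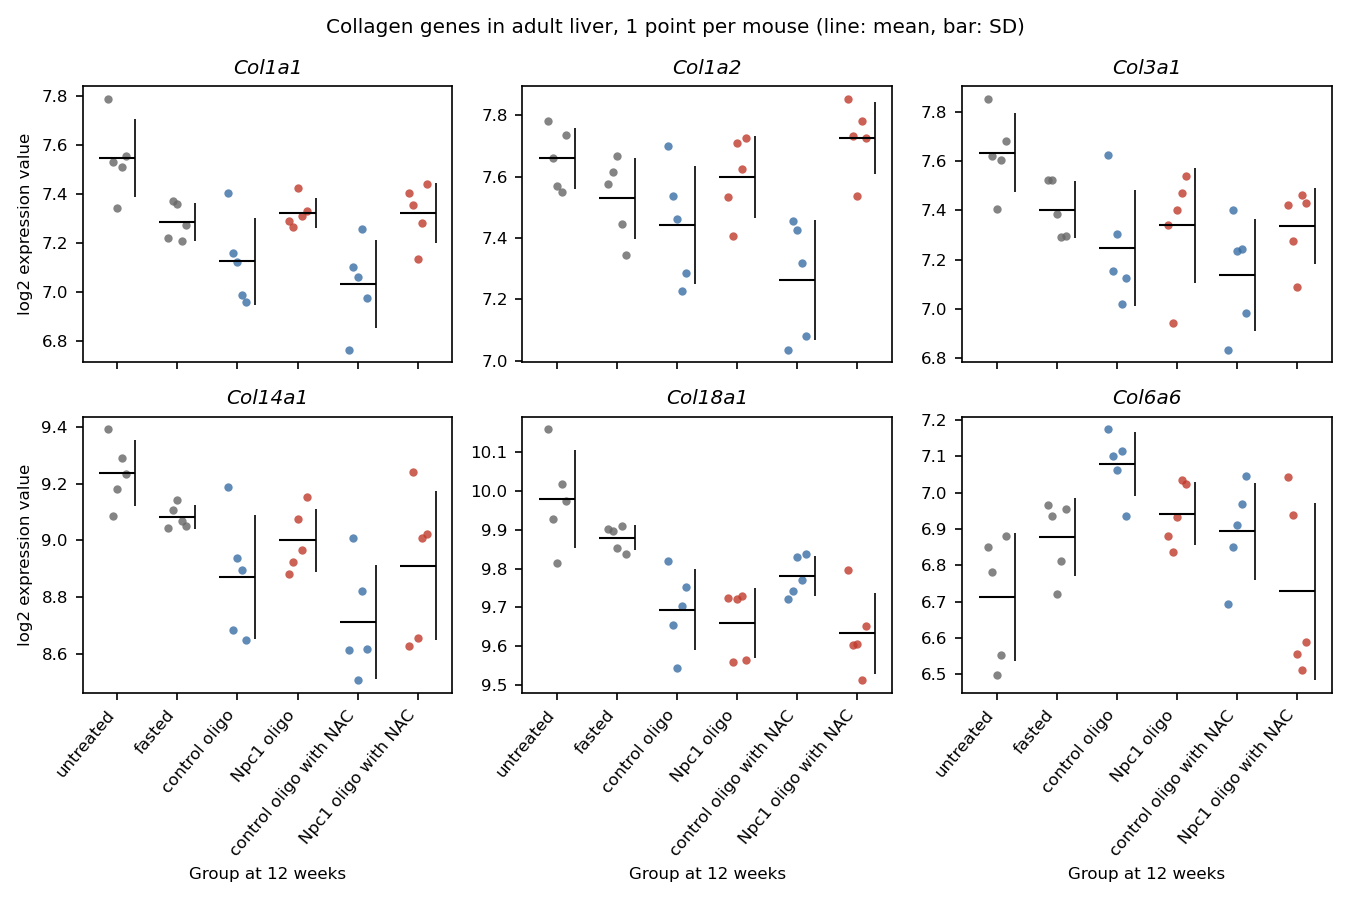
Log2 expression (vertical axes, which differ between panels) of Col1a1, Col1a2, Col3a1, Col14a1, Col18a1 and Col6a6 in the 6 groups of 12-week mice (horizontal axes). Each point is 1 of 5 mice, horizontal lines are group means and bars are standard deviations; the means of Col1a1, Col3a1, Col14a1 and Col18a1 are lower with the control oligo than in untreated mice.

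The proteins that work with collagen were followed in lists chosen with earlier results of these data known. Of the signals to collagen-making cells, 12 of 16 tested genes were higher on average over the ages in Npc1-/- mice and 0 lower (median change of the list 0.44, of all genes -0.01). The share of all genes for this and each list below, over the ages, was 26% higher and 26.6% lower. They included Tgfbr2 (0.99 ± 0.05), Tgfbr1 (0.86 ± 0.04), Tgfb1 (0.60 ± 0.04) and Pdgfra (0.52 ± 0.05), the receptors for TGF-beta, the cytokine and a PDGF receptor. In order of age the count of higher genes was 0, 7, 9, 11, 10 and 11 of the 16, with 1 lower at 9 weeks, 2 at 11 weeks and 0 before, while the higher share of all genes went from 2.91% at 1 week to 18.8% at 11 weeks. Of proteins that bind collagen fibrils, 11 of 15 were higher and 1 lower (median 0.23), among them Postn (0.60 ± 0.05), Bgn (0.54 ± 0.04), Tgfbi (0.49 ± 0.04) and Tnxb (0.46 ± 0.05). Of proteases that cut collagen and their inhibitors, 5 of 8 were higher and 1 lower (median 0.51), led by the cathepsin Ctsk (1.41 ± 0.06), the inhibitors Timp2 (1.20 ± 0.04) and Timp3 (0.74 ± 0.07) and the membrane-bound Mmp14 (0.66 ± 0.06).

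The enzymes that fold and finish the chains moved less in one direction. Of 16 genes of chain folding and modification, 5 were higher and 2 lower (median 0.02), with Crtap (0.37 ± 0.05) and P3h2 (0.35 ± 0.05) of prolyl 3-hydroxylation, the glycosyltransferase Colgalt1 (0.30 ± 0.03) and the prolyl 4-hydroxylase chain P4ha2 (0.28 ± 0.06). Of 9 genes of procollagen cleavage and cross-linking 3 were higher and 2 lower (median 0.02), with the transglutaminase Tgm2 at 0.51 ± 0.06 and the procollagen proteinase Bmp1 at -0.26 ± 0.03. Among basement membrane partners of collagen IV, 4 of 13 were higher and 3 lower (median 0.01). Nid1, which links laminin to collagen IV, was at 0.79 ± 0.04 and its relative Nid2 at -0.26 ± 0.05. Of 9 tested collagen receptors 5 were higher and 2 lower (median 0.13), led by the inhibitory receptor of leukocytes Lair1 (0.60 ± 0.04).

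From 3 to 11 weeks in Npc1+/+ mice, 5 of 15 collagen-binding proteins and 7 of 13 basement membrane partners fell and 0 rose (medians -0.25 and -0.37, beside 0.02 for all genes, of which 6.44% rose and 3.74% fell). Of the other lists, 2 of 9 genes of cleavage and cross-linking fell, as did 2 of 8 proteases and inhibitors, 2 of 16 signals and 1 of 9 receptors, with 0 higher in each, and 1 of 16 folding genes rose with 0 lower. Sparc, which binds collagen on its way out of the cell, changed by -1.71 ± 0.10, Nid1 by -1.06 ± 0.11 and the gelatinase Mmp2 by -0.91 ± 0.10. In Npc1-/- mice Sparc changed by -1.85 ± 0.10 and Nid1 by 0.05 ± 0.11 (adjusted p 0.787) over the same weeks. With the Npc1 oligo without NAC, 7 of 15 folding genes rose and 0 fell (median 0.03), beside 14.7% and 7.88% of all genes. With NAC 2 rose and 2 fell, beside 11% and 14.7%. Without NAC, P4ha1 was at 0.60 ± 0.13, and 3 of 6 proteases and inhibitors rose (median 0.26), with Mmp13 at 1.12 ± 0.19 and Timp2 at 0.48 ± 0.12. In the control oligo mice against untreated, 7 of 13 collagen-binding proteins fell and 0 rose (median -0.19), beside 21.3% of all genes lower and 5.05% higher (median -0.07).

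Markers of other liver cells moved with these comparisons. Over the ages all 9 of 9 macrophage markers were higher in Npc1-/- mice, with Cd68 at 2.64 ± 0.05, and their mean level went from 8.26 at 1 week to 9.71 at 11 weeks in mutants and from 8.17 to 7.38 in controls. Of 11 tested markers of stellate cells and myofibroblasts, 4 were higher and 1 lower (median 0.03), with Cygb at 0.49 ± 0.04, Pdgfrb at 0.41 ± 0.04 and Lrat at 0.37 ± 0.08 but Acta2, the actin of myofibroblasts, at -0.36 ± 0.14. The mean level of that list lay between 6.91 and 7.23 in mutant groups and between 6.74 and 7.20 in control groups. Of 8 markers of portal fibroblasts 3 were higher and 0 lower, of 5 markers of mesothelium 0 and 3, and of 14 markers of sinusoidal endothelium 2 and 12. At 3 weeks 10 of 10 pancreas markers were lower in mutants, beside 6.84% of all genes. Controls 1 and 2 had means over pancreas markers of 8.37 and 8.36. The other 2 controls (4.98 and 4.93) lay within the range of the mutants (4.71 to 4.99). From 1 to 3 weeks in Npc1+/+ mice, 6 of 11 stellate cell markers fell and 1 rose, and 9 of 9 macrophage markers fell. Of all genes, 21.5% fell and 15.4% rose over those weeks.

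At 12 weeks, 7 of 9 macrophage markers rose with the Npc1 oligo without NAC, 6 with NAC, and 5 with the control oligo against untreated mice. In the same order 14.7%, 11% and 5.05% of all genes rose. In the control oligo mice against untreated, 4 of 11 stellate cell markers fell and 0 rose, beside 21.3% and 5.05% of all genes. Acta2 was at -1.09 ± 0.20 and Pdgfrb at -0.52 ± 0.08. The part of these cells, and of the signal of muscle and pancreas in single mice, in the collagen values was not tested beyond leaving those mice out.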

How the data were processed

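Total RNA of 78 livers had been extracted with TRIzol and RNeasy columns and hybridised to Affymetrix arrays, per the labels' protocols. The deposited table holds log2 values of 35556 probe sets, and the submitters' processing notes list RMA and Partek 6.5, with no role or order. How the authors scaled the arrays is not given in the sources used here. The lowest value was 1.79 and the highest 14.6, array medians lay between 5.35 and 5.65, and no detection calls were at hand. Of the probe sets, 21789 had 1 gene symbol, 1621 several and 12146 were not listed. For each gene the probe set highest on average over all arrays was taken, a choice among several for 999 of 19938 genes. No 2 arrays held identical values (0 pairs, highest Pearson r 0.9941). The number of mice limits the precision.

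Genes that exceeded the overall median on 4 or more arrays of a fit were tested. Differences came from limma 3.58.1 in R 4.3.3 (lmFit with 1 mean per group, eBayes, two-sided), with 1 fit for the age series and another at 12 weeks, with Benjamini-Hochberg adjustment over all genes tested in each of 19 contrasts. The collagen genes and all lists were chosen with earlier results of these data known. Values in every mouse are given for up to 4 changed collagen genes per contrast with the largest change and for those a class turns on, and up to 4 changed genes are named per list. Alternatives were quantile normalization, centring on array medians, no filter, a filter at the 60th percentile, averaged probe sets, eBayes with trend and robust options, only the compared groups, the replicate number as a block, and left-out arrays. On simulated data with 200 changed genes, 76% of genes changed by 0.5 and 96% of those changed by 1 were recovered in the 1-week contrast (12347 genes), and 92% and 99% in the Npc1 oligo contrast without NAC (11824 genes). False calls made up 6.52% and 6.37% of the calls in these contrasts. The changed genes were drawn from those with a mean more than 1 above the median of all values. Recovery of genes with lower values was not examined. Promoter windows came from a RefSeq table of build GRCm38.p6; the array annotation names no build, so no other coordinates are given.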

Additional observations from a re-analysis of the deposited data

Results flagged for a closer look

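For 12 collagen genes the values of each of the 18 groups of 4 or 5 mice were examined, which made 216 sets of values. Chance alone flags about 1 in 20 such sets, but they share mice and so are not independent. In 10 of the 216 sets, 1 mouse stood far from the rest of its group. For Col1a1 they were 1-week Npc1-/- mouse 4 (9.93, the others 10.22 to 10.26), 5-week Npc1+/+ mouse 3 (8.38, the others 8.10 to 8.14) and 11-week Npc1+/+ mouse 1 (7.63, the others 7.33 to 7.35). For Col1a2 they were 1-week Npc1+/+ mouse 3 (9.65, the others 10.03 to 10.05), which is 1 of the 2 mice numbered apart, and 11-week Npc1+/+ mouse 3 (7.31, the others 7.55 to 7.57). Col4a1 was at 7.43 in 11-week Npc1-/- mouse 2 (the others 7.29 to 7.30). Col6a1 was at 6.33 in 9-week Npc1+/+ mouse 3 (the others 6.80 to 6.87). Col6a2 was at 7.30 in 7-week Npc1-/- mouse 3 (the others 7.06 to 7.09) and at 6.97 in 7-week Npc1+/+ mouse 1 (the others 6.86 to 6.87). Col27a1 was at 6.97 in mouse 4 of the Npc1 oligo group without NAC (the others 6.76 to 6.78).

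By limma, the slope of the genotype difference with age passed the threshold for 6 of 40 collagen genes and was above 0 in all 6, beside 14.9% of all genes with a rising and 14% with a falling slope. The slope per week was 0.0410 for Col14a1, 0.0325 for Col4a1, 0.0328 for Col4a2, 0.0335 for Col6a1, 0.0279 for Col6a2 and 0.0420 for Col6a6. Any variation of the difference between ages passed for 6 of 40, beside 27.7% of all genes. Its adjusted p was 0.000304 for Col14a1, 0.019 for Col3a1, 0.0194 for Col1a2, 0.0208 for Col6a6, 0.0413 for Col6a3 and 0.0461 for Col1a1. On the second probe set of Col6a6 the slope was -0.0075 per week (limma, unadjusted p 0.574). The variation had an unadjusted p of 0.956 there (moderated F test).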

How the results depend on the processing

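Of 118 calls of a collagen gene in a contrast with a direction, 80 held under every alternative in which all or named arrays were changed together, 67 also with any single array left out, and 0 reversed. A fit whose filter dropped the gene was not counted for that call, neither as held nor as lost. The counts below are of collagen genes called. At 3 weeks 4 became 1 without the 2 controls with pancreas signal. At 11 weeks 10 became 6 with no filter and 6 with only the compared groups. Over all ages 12 became 19 after quantile normalization. The slope's 6 became 2 after quantile normalization and 10 without the 1-week controls numbered apart, and the variation's 6 became 11 without those. The Npc1 oligo without NAC went from 1 to 2 after quantile normalization and to 0 with no filter, the stricter filter, the intensity trend, the replicate block or only the compared groups. NAC with the control oligo went from 0 to 2 after quantile normalization. NAC with the Npc1 oligo went from 1 to 0 with no filter, the stricter filter, the trend or only the compared groups. The control oligo went from 11 to 17 after quantile normalization. With single arrays left out the counts ran from 5 to 8 at 7 weeks, 9 to 16 at 9 weeks, 5 to 10 at 11 weeks, 3 to 10 for the slope and 3 to 10 for the variation, and from 0 to 4 and 2 to 5 for the Npc1 oligo without and with NAC. They ran from 0 to 2 for NAC with the control oligo, 0 to 1 with the Npc1 oligo, and 8 to 17 for the control oligo. The cause of these moves was not tested.

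The replicate numbers of the labels share only a number: of 66 pairs of same-numbered arrays 10 deviated together (r above 0.1, range -0.3284 to 0.2858), and 0 of 15 contrasts had every pair above 0.1. With the replicate block the count was 4 at 3 weeks, 7 at 5, 8 at 7, 14 at 9 and 9 at 11 weeks, 7 for the slope and 10 for the control oligo. The arrays' log2 values carry no background measure, so genes near the median of all values may lie at background.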
